A study of Mus musculus and Homo sapiens with 352 samples.

Results

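The interactions described here are CTCF-anchored chromatin contacts listed in CTCF-mutant CH12 cells but not in wild-type CH12 cells, although both of their anchors were already in use in the wild-type list. There were 2704 of them among 11820 mutant interactions. A mutant interaction was taken when its pair of anchors was absent from the wild-type list and each anchor, at identical coordinates, took part in some other wild-type interaction. Of the 8104 mutant interactions whose anchors were both in the wild-type list, 33.4% were new in this sense and 5400 were in both lists. The members were chosen by the measured presence of a pair in each list, which follows from its tags, so these counts and the tags of the members are a description.

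The mutant library came from CH12, a mouse B cell lymphoma line, with the genotype CTCFmZF9to11, meaning CTCF altered, per the labels, at zinc fingers 9 to 11. The library it is set against came from wild-type CH12 cells. The sources used here do not give how the mutation was made or whether the mutant line is 1 clone. There was 1 library per genotype, so no difference below has a replicate check, no test was made, and the mutation, other differences between the cell lines and differences between the preparations cannot be told apart.

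ChIA-PET pulls down a protein with the DNA it holds, ligates DNA ends that lie together, and sequences the joined ends, so that each tag reports a contact between a pair of sites. CTCF binds a directional DNA motif through its row of zinc fingers. Cohesin, a ring-shaped complex, extrudes chromatin loops and is commonly halted at CTCF sites, which is why a site often contacts several others along the same chromosome. A CTCF site that lies between the ends of a contact has therefore been passed over, in the sense used below. Interactions that share anchors can be followed as steps, and all anchors that can be reached from each other by such steps are called a chain here.

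The mutant list held 82222 tags and 12476 anchors, and the wild-type list 74198 tags and 13547 anchors; 9095 anchors were in both. No anchor overlapped another without being identical to it. Every listed interaction had at least 3 tags, so a pair that is not listed may still have had up to 2, and the sources used here do not give the total depth of the libraries. Of the 3964 anchors that carried a new interaction, 99.7% overlapped a CTCF peak of wild-type CH12 cells. The authors' listed interactions fell on CTCF peak calls, but whose peaks is not given. This share may therefore be largely fixed by that mapping.

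For comparison the rule was also applied with the lists exchanged. It found 1474 wild-type interactions absent from the mutant list with both anchors in use there, which are 21.4% of the 6874 eligible wild-type interactions. These are called the wild-type-only set. The new interactions were more numerous than the wild-type-only set on 20 of 20 chromosomes. These share the same pair of libraries, so they are no replicate check. The whole lists were close in size, at 11820 mutant and 11534 wild-type interactions with 5400 in both. Interactions at the 4452 wild-type anchors absent from the mutant list could not enter the wild-type-only set. Likewise, 3716 mutant-only interactions had an anchor not in the wild-type list and were left out. The excess therefore does not show a gain of like size in the whole list. The share of eligible mutant interactions that were new ran on the autosomes from 26.2% on chromosome 16 to 37.2% on chromosome 15. On chromosome X it was 4 of 39 eligible interactions, or 10.3% (95% Wilson interval 4.06 to 23.6).

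Most new interactions were weakly supported. Together they held 13044 tags, 15.9% of the mutant list, with a median of 4 tags, an interquartile range of 3 to 5 and a highest value of 51. Interactions in both lists had a median of 7 mutant tags, and the wild-type-only set a median of 4 wild-type tags. Of the new interactions, 1148 (42.5%) had 3 tags, 620 had 4, 318 had 5, 465 had 6 to 9, 129 had 10 to 19 and 24 had 20 or more. Thus 153 of them had 10 tags or more. The share of eligible mutant interactions that were new was 58.2% at 3 tags and 4.63% at 20 or more. In the wild-type-only set the matching shares were 40.0% and 4.13%, so the share fell with tags whichever list was searched.

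Just inside the rule stood the 1148 new interactions with 3 mutant tags and no wild-type listing. Just outside it stood 1025 interactions in both lists that had 3 wild-type tags, with a median of 4 mutant tags and an interquartile range of 3 to 6. Their median spans were 208 kb for the new interactions and 154 kb for those just outside. If the mutant tags were thinned at random to the wild-type total, 2366 of the 2704 would be expected to keep at least 3 tags. Both totals count only the tags of listed interactions, so this number cannot show how the set depends on library depth.

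With 51 tags, the best supported new interaction lay on chromosome 5 and linked 114910912 to 114911969 with 115058031 to 115059518 (mm9), 147 kb apart. Each of its ends had 1 wild-type partner and the ends lay in different wild-type chains. The left end reached its wild-type partner at 115017450 to 115018656 with 3 mutant and 7 wild-type tags, and the new interaction passed over that anchor. The right end had a wild-type partner 10.2 kb to its right, reached with 5 mutant and 3 wild-type tags. In the mutant list both ends had 5 partners each, and the right end joined 3 further anchors to its left that were new to it, with 4, 11 and 9 tags. Both wild-type contacts were thus still listed beside the new ones.

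The second joined chromosome 10 positions 79387509 to 79389667 and 79420562 to 79421347, 32.4 kb apart, with 41 tags. Its ends had 2 common partners in the wild-type list, both to the left of the pair. The left anchor already contacted an anchor 28.3 kb away, at 79416345 to 79417371, with 22 mutant and 21 wild-type tags. Here the new contact ended beside an old one that kept its tags. The third joined chromosome 11 positions 100142595 to 100144683 and 100156067 to 100157567, only 13.2 kb apart, with 39 tags and 3 common wild-type partners. One of those partners, at 100029905 to 100031459, was joined to the left end by 29 mutant and 12 wild-type tags and to the right end by 45 mutant and 9 wild-type tags.

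The next 7 by tags had between 26 and 33. They lay on chromosomes 11, 17, 14, 6, 5, 8 and again 11, and their spans ran from 42.1 to 442 kb. The longest of these, on chromosome 17 (73650380 to 73653275 with 74093065 to 74093949), had 32 tags, passed over 5 wild-type anchors and had 1 common partner outside its ends. The one on chromosome 14 (55332539 to 55333776 with 55436386 to 55437400) had 29 tags over 104 kb and closed a pair of wild-type steps through an anchor between its ends. Of the 10 with most tags, 5 had no wild-type path between their ends, and 5 had a wild-type interaction whose anchors lay within 10 kb of both of theirs.

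New interactions spanned longer distances than either set beside them. The median distance between anchor midpoints was 202 kb (exact 95% interval of the median 194 to 211), against 134 kb (130 to 139) for interactions in both lists and 147 kb (138 to 159) for the wild-type-only set. Of the new interactions, 22.1% (20.6 to 23.7) spanned 400 kb or more, against 11.0% of interactions in both lists and 13.5% of the wild-type-only set. Under 100 kb lay 24.6% of the new interactions, 37.9% of those in both lists and 35.8% of the wild-type-only set. None of these intervals overlapped between the new interactions and the other sets. They cover counting error only and treat interactions as independent, although many share an anchor.

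The share of eligible mutant interactions that were new grew with span. It was 24.8% under 50 kb, 24.3% at 50 to 100 kb, 29.4% at 100 to 200 kb, 40.0% at 200 to 400 kb, 48.9% at 400 to 800 kb and 56.1% from 800 kb. With the lists exchanged the shares were 24.4%, 17.5%, 20.6%, 22.2%, 24.2% and 29.5%. Under 50 kb the lists differed by less than the counting error in this measure, and the gap widened with distance. The longer median held on 19 of 20 chromosomes against interactions in both lists. The exception was chromosome 10, where it was 161 kb for new interactions and 168 kb for those in both lists.

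**Figure D1:**
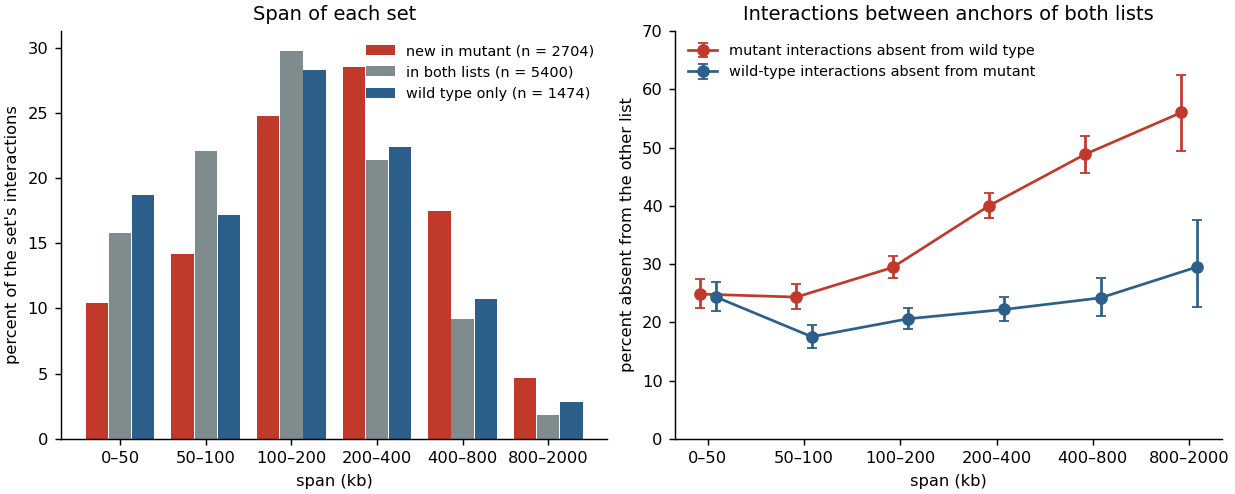
Left, percent of each set's interactions in 6 classes of span in kb: red, new in the mutant; grey, in both lists; blue, wild type only. Right, percent of eligible interactions absent from the other list by span, with 95% Wilson intervals as bars: the mutant share climbs from about the wild-type level under 50 kb to 56.1% from 800 kb, against 29.5% for wild type.

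The longer span was seen at most levels of support but not at the highest. From 3 to 19 tags the median span of new interactions lay between 191 and 224 kb in 5 classes of tags, against 126 to 145 kb for interactions in both lists with the same mutant tags. For the 24 new interactions with 20 tags or more it was 90.7 kb (56.6 to 110), against 122 kb (109 to 133) for 494 interactions in both lists. The best supported new contacts were thus not longer than those in both lists, and the intervals just overlapped. Long contacts with good support were also found. The 3 longest with 10 or more tags lay on chromosome 10 (95676291 to 95677165 with 96775317 to 96776284, 1099 kb, 10 tags), chromosome 13 (111172326 to 111173431 with 112200745 to 112201809, 1028 kb, 14 tags) and chromosome 19 (59313511 to 59314759 with 60219979 to 60220970, 906 kb, 10 tags). The one on chromosome 13 had a wild-type interaction whose anchors lay within 10 kb of both of its own, and those on chromosomes 10 and 19 had none. The one on chromosome 10 passed over no wild-type anchor although 4 CTCF peaks lay between its ends.

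Most new interactions passed over sites that were anchors in wild type. At least 1 wild-type anchor lay between the ends of 2390 of them, or 88.4% (87.1 to 89.5), and 27.0% passed over 5 or more. The median was 3 anchors, the mean 3.34 and the highest 21. The wild-type-only set passed over at least 1 mutant anchor in 77.4% (75.2 to 79.5) of its interactions, with a median of 2 and a mean of 2.20. Interactions in both lists passed over a wild-type anchor in 63.9% of cases, with a mean of 1.50.

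The difference was also present at like distances. Within each of the 6 span classes the mean number passed over was higher for the new interactions than for the wild-type-only set. At 200 to 400 kb it was 3.98 for new interactions, 3.06 for the wild-type-only set and 2.25 for interactions in both lists. From 800 kb it was 6.58 for new interactions, 4.24 for the wild-type-only set and 2.68 for interactions in both lists. The wild-type list has more anchors to pass over than the mutant list. Counted over mutant anchors for both sets, the mean was 2.88 for new interactions and 2.20 for the wild-type-only set. On that count the new interactions stood higher in the 4 classes from 100 kb, at 5.51 against 4.24 from 800 kb, but not under 50 kb (0.468 and 0.480) or at 50 to 100 kb (1.22 and 1.26). Counted over the CTCF peaks of wild-type CH12 cells, with all spans together, new interactions passed over a median of 7 peaks. At least 1 peak was passed over by 95.3% of them. The wild-type-only set passed over a median of 4 and 90.8% at least 1, and interactions in both lists a median of 3 and 88.5%. By span, the medians of new and wild-type-only interactions were 1 and 1 under 50 kb and 3 and 3 at 50 to 100 kb. They were 6 and 5 at 100 to 200 kb, 9 and 8 at 200 to 400 kb and 13 and 11 at 400 to 800 kb. From 800 kb they were 15 and 11.

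**Figure D2:**
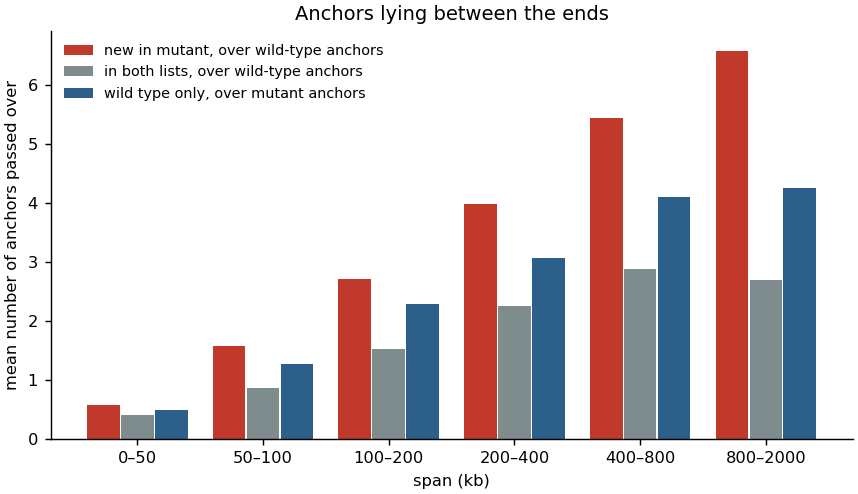
Mean number of anchors lying between the ends of an interaction (y axis) in 6 classes of span in kb (x axis). Red bars, new interactions over wild-type anchors; grey, interactions in both lists over wild-type anchors; blue, wild-type-only interactions over mutant anchors. Red stands above blue and grey in each class, at 6.58 against 4.24 and 2.68 from 800 kb.

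The anchors passed over were not mainly those that the mutant list had lost. Of 5373 wild-type anchors passed over by at least 1 new interaction, 1741 were absent from the mutant list, which is 32.4% (31.2 to 33.7). Among all 13547 wild-type anchors the share was 32.9%, and among those passed over by interactions in both lists it was 34.2%. The share at new interactions is therefore near the background. It was 70.6% when the mutant list was limited to 10 or more tags, which removes anchors from that list by construction. For the 472 new interactions that passed over exactly 1 wild-type anchor, that anchor was absent from the mutant list in 35.8% (31.6 to 40.2), against 38.6% (36.1 to 41.2) for 1435 interactions in both lists that did the same. The median percentile of the CH12 peak score was 63.1 at the passed-over anchors absent from the mutant list and 81.5 at those kept.

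The 3 new interactions that passed over most wild-type anchors with 10 or more tags skipped 12, 10 and 9 of them. On chromosome 19 (41145690 to 41146781 with 41838005 to 41839106) an interaction of 692 kb with 11 tags passed over 12, of which 4 were absent from the mutant list. On chromosome 11 (31899915 to 31900809 with 32220772 to 32222194) 15 tags spanned 321 kb and 10 wild-type anchors, 3 of them absent. Its ends had 2 common wild-type partners, both between the ends. On chromosome 1 (182198078 to 182199607 with 182693661 to 182694740) 11 tags spanned 495 kb and 9 wild-type anchors, 2 of them absent.

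The wild-type list also showed how the ends of a new interaction had been related before. For 941 of the 2704, or 34.8% (33.0 to 36.6), both ends had contacted a common partner in wild type, so that a path of 2 steps joined them. A further 447 were joined by 3 steps, 68 by 4 and 29 by 5 or more. The other 1219, or 45.1% (43.2 to 47.0), joined anchors of different wild-type chains. In the wild-type-only set, 50.3% (47.8 to 52.9) had a common mutant partner and 339 of 1474 (20.9 to 25.2%) joined different mutant chains. The new interactions thus lay within an existing chain less often, at 54.9% against 77.0%, but the lists differ in how connected they are: there were 2434 mutant and 3236 wild-type chains, with up to 54 and 30 anchors.

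Because pairs of anchors in different chains are far more common than pairs within a chain, the shares were also counted over every possible pair. Among the 9095 anchors of both lists, 120145 pairs lay within the 2 Mb limit of the files and were unjoined in wild type, and 2.25% of them were joined in the mutant list. The share was 15.9% (14.96 to 16.8) of the 5930 pairs with a common wild-type partner, 8.62% (7.95 to 9.34) of the 6312 pairs in the same chain without one, and 1.13% (1.07 to 1.19) of the 107903 pairs in different chains. Pairs already close in the wild-type network were therefore joined most often. Limiting the mutant list to 5 or 10 tags, which by construction leaves out joins with fewer, lowered the first share to 9.57% and 6.00%. With the lists exchanged the same order was found at lower levels, at 8.62%, 2.92% and 0.350%.

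Pairs with a common partner also lie closer together. At like distances the order was the same in each of the 6 classes. Under 50 kb the intervals of pairs in the same chain overlapped those of both other kinds, and at 50 to 100 kb they overlapped those of pairs in different chains. At 100 to 200 kb the mutant list joined 19.3% of pairs with a common partner, 13.4% of those in the same chain and 5.94% of those in different chains. At 400 to 800 kb it joined 18.9%, 5.08% and 1.16%. Between 50 and 800 kb the share for pairs with a common partner stayed between 18.9% and 20.8%, whereas with the lists exchanged it was 12.0% at 50 to 100 kb and 5.08% at 400 to 800 kb. The lists thus came closest at short range: under 50 kb the common-partner share was 8.93% in the mutant list and 8.01% with the lists exchanged, with overlapping intervals.

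**Figure D3:**
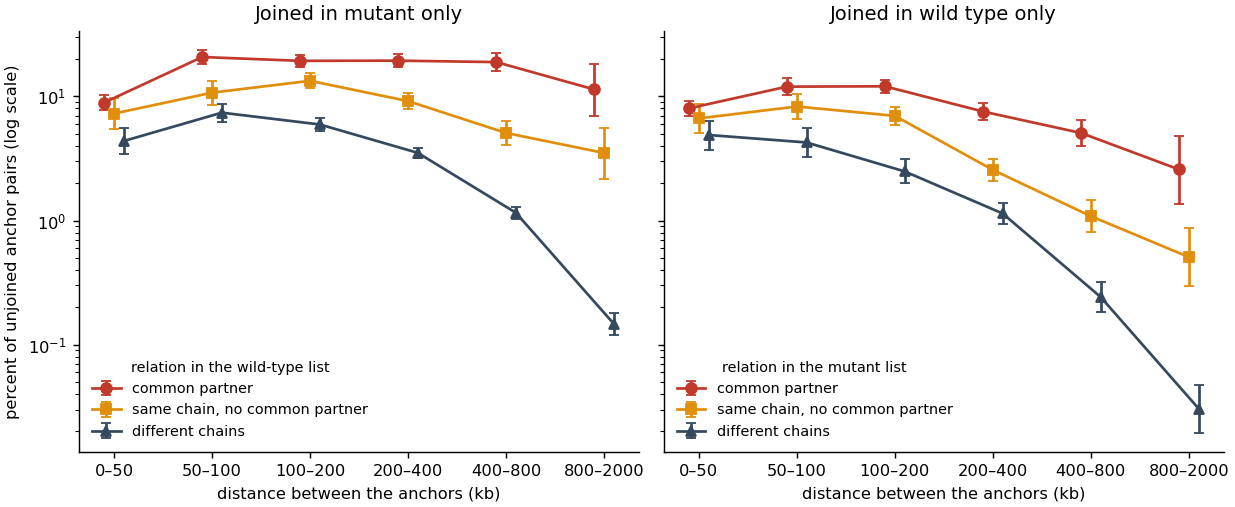
Percent of unjoined anchor pairs (log scale) that were joined in the other list, by distance between the anchors in kb; left, joined in the mutant list only, right, joined in the wild-type list only. Circles, pairs with a common partner; squares, same chain without one; triangles, different chains; bars, 95% Wilson intervals. The common-partner line stays near 19% from 50 to 800 kb on the left; on the right it is near 12% from 50 to 200 kb and lower beyond.

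Crossing wild-type anchors went with fewer new contacts only once several were crossed. Of unjoined pairs with no wild-type anchor between them 7.84% (7.05 to 8.72) were joined in the mutant list, against 10.9% (10.0 to 11.9) with 1 between them, 10.3% with 2, 6.79% with 3 or 4, 2.54% with 5 to 9 and 0.142% with 10 or more. With the lists exchanged, and mutant anchors counted, the shares were 8.00%, 7.96%, 5.65%, 2.84%, 0.727% and 0.0217%. The lists did not differ beyond counting error where nothing was passed over, and did so in each class above. Distance rises along these classes, so within 200 to 400 kb the mutant shares were 9.68%, 12.4%, 9.90%, 7.82%, 3.66% and 1.35%, against 10.6%, 7.57%, 4.95%, 3.13%, 1.096% and 0.121% with the lists exchanged.

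A common partner lay between the ends for 325 of the 941, or 34.5% (31.6 to 37.6), so that the new interaction ran from the first anchor past the second to the third of a wild-type row. For the other 616 the common partner lay outside the ends. Of all wild-type paths of 2 steps with the partner between the ends, 26.0% (23.7 to 28.5) of 1249 were closed in the mutant list, against 13.2% (12.2 to 14.2) of 4681 with the partner outside. With the lists exchanged the shares were 10.1% of 2238 and 8.10% of 6367. A row of 3 anchors was thus spanned more often than a pair on the same side of its partner, and this gap was wider in the mutant list. These shares were not split by distance. Of the 5930 pairs with a common wild-type partner, 1994 lay under 50 kb, and 8.93% of those were joined in the mutant list. The part of distance in the gap was not tested.

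The steps that a new interaction spanned were in part still listed. Of the 325, both wild-type steps were kept in the mutant list for 109 (33.5%, 28.6 to 38.8), 1 step for 148, and no step for 23 with the middle anchor still listed and for 45 without it. Both steps were kept for 20.7% of 150 at 5 or more mutant tags and for 0 of 32 at 10 or more, where the mutant list itself is shorter. Of the 924 rows that were not spanned, both steps were kept for 41.5%. Rows were spanned in 22.2% (18.7 to 26.0) of cases with both steps kept, 26.1% (22.7 to 29.9) with 1 kept, 22.3% (15.4 to 31.3) of 103 with neither kept and the middle anchor listed, and 51.7% (41.4 to 61.9) of 87 with the middle anchor absent. The share thus stood apart only where the middle anchor was absent. With the lists exchanged the shares in that order were 15.3%, 10.1%, 4.55% and 14.3% (8.17 to 23.8, of 77). An end with no step kept enters this count only if it has some other mutant interaction, and the part of that condition in these shares was not tested.

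Seen from each end, new interactions mostly reached past the old contacts. Of 5408 ends, 52.8% (51.5 to 54.1) reached farther than every wild-type partner of that anchor on the same side, 12.1% fell between such partners, 16.0% were nearer than all of them and 19.1% had no wild-type partner on that side. In the wild-type-only set, set against mutant partners, the shares were 36.3% (34.6 to 38.1), 15.8%, 28.4% and 19.4%. Farther ends were more frequent, and ends between or nearer than the partners less frequent, among new interactions, while the shares of ends facing an unused side differed by less than counting error. For 34.4% of new interactions both ends reached farther, against 17.0% of the wild-type-only set. The partners they were set against also differed in number. Anchors of both lists had a mean of 2.11 mutant and 1.91 wild-type partners, and the part of this in the shares was not tested. The new interactions were also longer, at a median of 202 kb against 147 kb, and the shares were not split by distance. With both lists limited to 400 kb or less, 48.6% (47.0 to 50.1) and 36.2% (34.2 to 38.2) of ends reached farther. The part of span in the gap was not tested.

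Among the ends that reached farther, the new span was a median of 2.03 times that of the farthest wild-type partner (interquartile range 1.35 to 3.59), an added 124 kb. In the wild-type-only set the median was 1.52 times, an added 66.3 kb. The farthest wild-type partner that had been passed was missing from the anchor's mutant partners in 43.2% (41.4 to 45.0) of these ends, against 36.3% (35.3 to 37.2) over all sides of anchors in both lists. With the lists exchanged it was 44.2% (41.2 to 47.2), an interval that overlaps that of the new interactions.

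**Figure D4:**
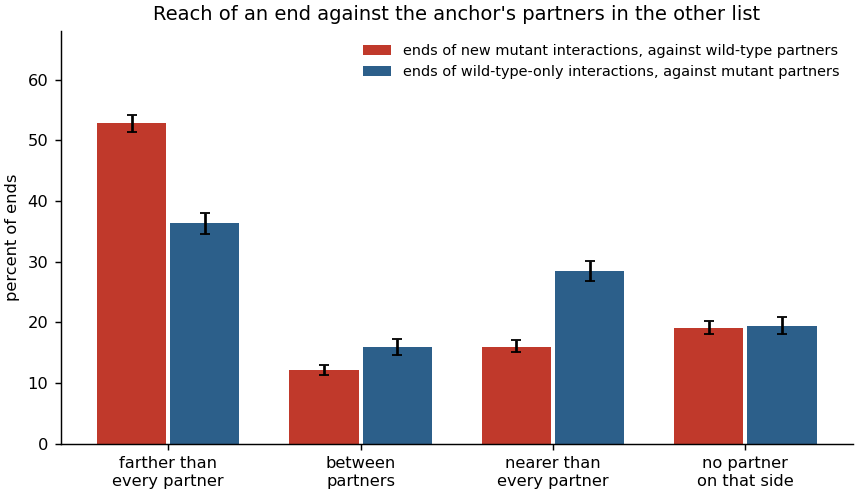
Percent of interaction ends (y axis) by reach relative to the same anchor's partners in the other list. Red, 5408 ends of new mutant interactions; blue, 2948 ends of wild-type-only interactions; bars, 95% Wilson intervals. The red bar is above the blue for ends farther than every partner (52.8% and 36.3%) and below it for ends nearer than every partner (16.0% and 28.4%).

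New interactions were often inside or around wild-type ones. Of the 2704, 52.3% (50.4 to 54.2) lay within a longer wild-type interaction and 84.2% (82.8 to 85.6) enclosed a shorter one. Only 23 did neither. In the wild-type-only set, 77.7% lay within a mutant interaction and 71.6% enclosed one. The new contacts were thus more often the outer arc and less often the inner one than the wild-type-only contacts. Each set was compared with a different list and the sets differed in span, and the part of either in these shares was not tested.

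The 1219 interactions between different chains linked 870 pairs of wild-type chains. Of these pairs, 630 were linked by a single new interaction and 73 by 3 or more. Interactions between chains had a median span of 265 kb, and those within a chain 160 kb. On chromosome 13, 8 new interactions with 41 tags linked a wild-type chain of 17 anchors to one of 7 anchors across 1175 kb (52347857 to 53522825). On chromosome 8, 7 new interactions with 41 tags linked chains of 5 and 11 anchors (124126352 to 124459812). These are the chain pairs with most new interactions, chosen after their values were seen.

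Most anchors with a new interaction had a single one. The 3964 anchors with a new interaction made up 43.6% of the 9095 in both lists. Of these, 2876 had 1, 824 had 2, 194 had 3, 55 had 4 and 15 had 5 or more, up to 8. In the wild-type-only set, 2948 ends fell on 2498 anchors, with up to 5 on 1 anchor. Of the new interactions, 70.3% shared an end with another, and they fell into 1337 groups linked by shared anchors, of which 803 were single interactions. The biggest group held 20 interactions and 112 tags on 14 anchors of chromosome 13 (51925642 to 53522825), from 2 wild-type chains; it too was picked for its size.

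The anchor with most new interactions lay on chromosome 8 (124126352 to 124127540). It had 10 mutant and 3 wild-type partners, and 8 of the mutant ones were new, with 47 tags. Of the new contacts 7 went to the right, to anchors 205 to 332 kb away, with 4, 5, 9, 6, 5, 9 and 3 tags, and 1 went 489 kb to the left with 6 tags. Its wild-type contacts were shorter. At 82.4 kb to the right there were 20 mutant and 12 wild-type tags, at 55.7 kb to the left 3 mutant and 4 wild-type tags, and at 19.05 kb to the right 4 wild-type tags and no mutant listing.

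On chromosome 14 (55269481 to 55270623) an anchor with 8 mutant and 4 wild-type partners had 6 new interactions with 30 tags, 4 of them to the left at 82.1 to 590 kb. Its main contact, 50.3 kb to the right, had 49 mutant and 25 wild-type tags. Contacts 14.04 kb to the left and 18.5 kb to the right, with 3 and 13 wild-type tags, were not listed in the mutant, and their partner anchors were absent from that list. The chromosome 10 anchor of the second strongest new interaction had 10 mutant and 5 wild-type partners. All 5 wild-type contacts were kept, so its 5 new interactions stood beside a complete set of old ones.

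**Figure D5:**
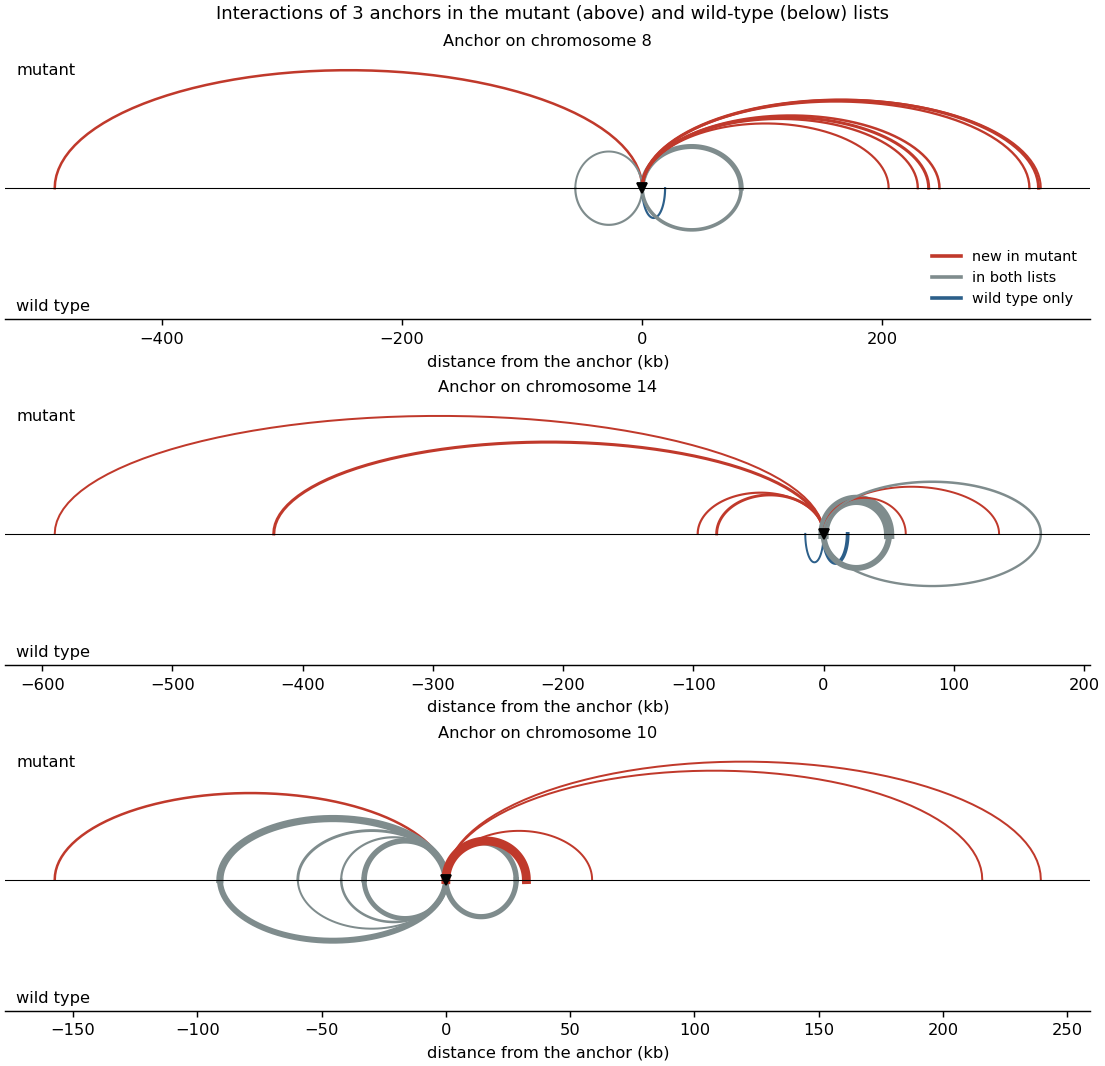
Interactions of 3 anchors with many new contacts, drawn as arcs over distance from the anchor in kb (triangle at 0), mutant list above the line and wild-type list below. Red, new in the mutant; grey, in both lists; blue, wild type only; a thicker arc has more tags, and arc height follows distance for legibility only. On chromosome 8 the red arcs end 205 to 332 kb to the right, beyond the grey arc at 82.4 kb.

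A pair of anchors on chromosome 13 completed the 5 with most new interactions. The one at 53521606 to 53522825 had 8 mutant and 2 wild-type partners, all to its left, and 7 new interactions. Neither of its wild-type contacts, with 10 and 3 tags, was listed in the mutant. A new contact with 12 tags ended 307 kb away, at 53214914 to 53215883, near the lost one of 10 wild-type tags 317 kb away. The other anchor, at 52347857 to 52350164, had 9 mutant and 4 wild-type partners and 6 new interactions. These anchors were joined to each other by a new interaction of 1173 kb with 5 tags.

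Anchors with more wild-type partners gained new ones somewhat more often. A new interaction was found on 42.1% of anchors with 1 wild-type partner, 42.7% with 2, 45.9% with 3, 49.1% with 4 or 5 and 58.5% of the 130 with 6 or more. At anchors with several wild-type partners, those with and without a new interaction had lost old ones at close rates. Among anchors with 3 wild-type partners, 81.1% (77.8 to 84.1) of those with a new interaction and 82.5% (79.5 to 85.2) of those without had lost at least 1 wild-type interaction. Among those with 4 or 5 the shares were 92.1% and 92.4%. Among those with 2 the shares were 69.4% (66.7 to 72.0) and 66.1% (63.7 to 68.4), with overlapping intervals. At anchors with 1 wild-type partner they were 44.8% and 14.1%, but an anchor that lost its one contact had to have another mutant contact to be in both lists.

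The ends of new interactions carried strong CTCF peaks. The median percentile of the authors' CH12 peak score was 82.5 (81.7 to 83.1) at ends of new interactions, against 76.4 (75.6 to 77.1) at the 5131 anchors of both lists without one and 81.6 (80.5 to 82.5) at ends of the wild-type-only set, whose interval overlaps. At the weaker end of an interaction it was 73.0 for new interactions, 70.8 for those in both lists and 70.4 for the wild-type-only set. Among anchors with 1 wild-type partner, 27.3% (21.8 to 33.5) of those with peaks in percentiles 0 to 25 of the score had a new interaction, and 48.4% (46.2 to 50.5) of those in percentiles 75 to 100. In the B cell peak list the order of the medians was the reverse. There the median percentile of fold over background was 71.3 (70.5 to 72.1) at ends of new interactions. At the anchors of both lists without one it was 72.9 (72.2 to 73.6), and these intervals did not overlap. The CH12 peaks come from wild-type cells, and CTCF binding in the mutant was not measured in the files used here.

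Some new interactions lay beside a wild-type one. For 557, or 20.6% (19.1 to 22.2), a wild-type interaction had both anchors within 10 kb of theirs, against 29.1% (26.8 to 31.5) of the wild-type-only set against the mutant list. It was 12.0% within 5 kb, 32.0% within 20 kb, and 5.38% within 10 kb after anchors within 5 kb were merged. At 10 kb and without merging the share was 16.8% (14.8 to 19.1) at 3 tags and 34.0% (27.0 to 41.8) at 10 tags or more. Better supported new interactions also more often had a common wild-type partner, in 33.1% (30.4 to 35.9) at 3 tags and 46.4% (38.7 to 54.3) at 10 or more. Both ends reached farther in 34.4% (31.7 to 37.2) at 3 tags and 24.8% (18.7 to 32.2) at 10 or more, with overlapping intervals. The weakly supported new interactions thus more often linked different chains, 48.7% at 3 tags against 33.3% at 10 or more. The passing of at least 1 wild-type anchor changed little, at 88.1% and 86.3%. The passing of 5 or more was less frequent with good support, at 28.7% and 18.3%, and these intervals did not overlap. The shares by tags were not split by span, and the part of span in them was not tested.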

How the data were processed

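CTCF ChIA-PET interaction lists of mutant and wild-type CH12 cells were used, with CTCF peak lists of wild-type CH12 cells and of resting and activated B cells. The authors deposited counts of tags for each interaction. Listed interactions fell on CTCF peak calls holding core motifs, had at least 3 tags and spanned up to 2 Mb, per the file headers. The CH12 list holds a score per peak and the B cell list a fold over background, both deposited by the authors and used as percentiles within their own list. The submitters' processing notes give mm9 as the build and name BWA, bedtools 2.25, SAMtools 1.2, Bowtie 1.1.1 and CASAVA 1.8.2 with no roles. The sources used here do not give the interaction caller or whose peaks set the anchors.

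Anchors were matched by identical coordinates, and coordinates are printed counting from 1. Span was the distance between anchor midpoints, and an anchor was passed over when it lay wholly between the ends. Every pair of anchors of both lists on a chromosome within 2 Mb was enumerated. Shares have 95% Wilson intervals and medians exact order-statistic intervals, which cover counting error only. With 1 library per genotype no test was run. The members, comparisons and alternatives were chosen with earlier results of these data known. Named were the 10 new interactions with most tags, the 3 longest and the 3 passing over most anchors with 10 or more tags, and the 5 anchors with most new interactions. Genes, sequences and motif orientation were not used here. Steps were tested on simulated data; Python 3.11.15, numpy 2.4.6, scipy 1.17.1 and matplotlib 3.10.9 were used.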

Additional observations from a re-analysis of the deposited data

How the results depend on the processing

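No paired analysis was possible because each genotype had 1 library. Of 69 alternatives to 13 results, 21 gave values inside the reported interval (for the number of new interactions, within 1.5 times) and 48 did not; no reversal could be scored. The number of new interactions was 936 with mutant interactions of 5 or more tags, 153 with 10 or more and 1301 with 4 or more in both lists, fewer by construction. Median tags in that order of settings were 6, 12 and 5. Median spans were 153 kb at 10 or more tags, 212 kb with anchors merged within 5 kb and 154 kb among interactions of 400 kb or less, the last by construction.

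The share passing over a wild-type anchor was 86.3% at 10 or more tags, 85.2% with merged anchors, 86.3% at 400 kb or less and 95.3% with CTCF peaks in place of anchors. Passed-over anchors absent from the mutant list were 48.5% and 70.6% at 5 and 10 or more mutant tags, where the mutant list itself was cut, and 28.3% with merged anchors. A common partner was found for 37.6%, 46.4%, 29.9% and 40.2% with 5 or more, 10 or more, 4 or more in both and merged anchors. The share in one chain was 59.0%, 66.7% and 47.8% under the first 3 of these and 57.1% at 400 kb or less. A partner between the ends was found for 42.6%, 45.1% and 38.0% with 5 or more, 10 or more and merged anchors. Closed paths were 9.57%, 6.00%, 13.04% and 18.1% with 5 or more, 10 or more, 4 or more in both and merged anchors. In the first pair, mutant joins with fewer tags were left out by construction. Closed paths with both steps kept were 20.7%, 0 of 32 (0%, up to 10.7%) and 43.7% with 5 or more, 10 or more and merged anchors; the first pair also reflects the shortened mutant list. Ends reaching farther were 45.8%, 56.1% and 48.6% with 10 or more, 4 or more in both and 400 kb or less. Median peak percentiles were 84.6, 88.0, 84.7, 83.6 and 83.8 with 5 or more, 10 or more, 4 or more in both, merged anchors and 400 kb or less. A near match was found for 26.6%, 34.0%, 5.38% and 23.9% with 5 or more, 10 or more, merged anchors and 400 kb or less, and for 12.0% and 32.0% within 5 and 20 kb. Elsewhere the cause was not tested.

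With both lists treated alike, and with a limit of 5 tags in both that was chosen after seeing the data, the new interactions stayed longer than the wild-type-only set (199 and 149 kb at 5 tags, 154 and 123 kb at 400 kb or less). They also reached farther more often (58.1% and 43.9% at 5 tags) and shared a chain less often (40.7% and 62.8%). The limit of 3 tags leaves weak contacts uncounted, so an unlisted pair is not shown to be absent in wild type.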
